A study of Mus musculus with 24 samples.

Results

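Smooth muscle contractile genes were followed as 10 genes of the actin and myosin apparatus and its supporting filaments: Acta2, Actg2, Tagln, Cnn1, Lmod1, Myh11, Mylk, Smtn, Des and Synm. The members were the genes whose symbol the scanner files give to a probe that is not a control, and 18 of the 41174 probes carried 1 of these symbols. All 10 members passed the filter on dim probes and were among the 20542 genes tested, and 17 of their 18 probes passed it. The 6 members with a single probe were Actg2, Cnn1, Des, Lmod1, Myh11 and Smtn. The oesophagus of male C57BL/6J mice was profiled in 8 groups of 3 arrays: Nrf2-/- mice, here called Nrf2-null, and wild-type mice, each with gastric, duodenal or mixed reflux for 4 weeks or without reflux. All mice were 12 weeks old, and the labels do not say how the deletion was made or how reflux was produced. Every array set oesophageal RNA, in Cy5, against a commercial mouse RNA pooled from 11 cell lines, in Cy3, with no dye swap, so levels are log2 ratios to that pool and can be compared between samples but not between probes. The number of arrays limits the precision. The design allows the genotypes to be compared within each condition and each type of reflux to be compared with no reflux within a genotype.

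The tissue labels bear directly on these genes, and they conflict. The tissue entry reads whole oesophagus for 7 groups and epithelium for Nrf2-null mixed reflux, while the source entry reads epithelium for all 24 arrays. On the arrays themselves all 10 members were well above background in all 24 samples, Nrf2-null mixed reflux included. So were 12 to 15 of 15 skeletal muscle genes and all 7 stratified epithelium genes. RNA of these genes was thus detected in every sample, which does not show how much muscle a sample held. The 3 arrays of Nrf2-null mixed reflux differed from each other far less than those of other groups did (variance 1.63 to 2.61 times that of repeat spots, against 5.85 to 470 times for the 21 other pairs) and were counted as 1 sample, which has no spread of its own. On the 2 arrays of slide 1, wild type without reflux replicates 1 and 2, the scanner software marked 13.0% and 11.8% of spots as outliers, among them every spot of the representative probes of Acta2, Tagln, Cnn1, Myh11, Actg2 and Mylk, so the fits of these 6 genes rest on 1 array of that group. The values of the marked spots are given beside them. Nrf2-null gastric reflux replicate 2, labelled male, had Ddx3y at -4.20, Kdm5d at -1.58 and Eif2s3y at -4.09, against 0.16 to 1.48, 0.14 to 1.66, and 1.47 to 3.1 on the other arrays. Nfe2l2, the gene that encodes Nrf2, lay at -3.81 to -2.83 on the 12 Nrf2-null arrays and at 1.45 to 2.18 on 10 wild-type arrays, its spots being marked as outliers on the other 2. Nothing in the labels says that RNA was pooled. The labels call the 3 samples of each group biological replicates.

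Smooth muscle shortens when myosin light chain kinase, activated by calcium and calmodulin, phosphorylates the myosin light chain and lets smooth muscle myosin pull on actin filaments. Calponin, transgelin and leiomodin sit on or build those filaments, while desmin and synemin form the intermediate filaments that tie the contractile units together. Many of these genes are switched on by serum response factor and its partner myocardin through the CArG box. In the mouse oesophagus the outer muscle coat is mostly striated, and smooth muscle is found in the muscularis mucosae and in vessel walls. Fewer smooth muscle cells and less RNA per cell cannot be told apart in such tissue.

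The probes show which part of each transcript a value stands for, and the ones printed here lie in coding sequence, on the strand of the gene, with no base set in capitals.
Acta2, second probe: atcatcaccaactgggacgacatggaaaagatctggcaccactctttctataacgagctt
Tagln, second probe: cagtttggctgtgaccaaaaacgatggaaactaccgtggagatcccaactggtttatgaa
Myh11: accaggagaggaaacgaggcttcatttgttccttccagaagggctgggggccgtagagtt
Mylk: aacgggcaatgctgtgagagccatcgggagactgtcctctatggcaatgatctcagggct
Smtn: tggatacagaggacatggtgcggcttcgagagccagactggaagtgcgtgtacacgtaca
In build mm9, per the file headers, they lie at chr19:34322995-34326249, chr9:45738916-45738975, chr16:14195223-14198147, chr16:34995162-34995221 and chr11:3420834-3420893.
The Acta2 and Myh11 probes of 60 bases span 3255 and 2925 bases of the genome, so each crosses a splice junction.
The brightest probe of Acta2 lay further 3′, at chr19:34316060-34316119, and so did that of Tagln, at chr9:45738097-45738156.
The actin genes are closely alike in coding sequence, and cross-hybridisation between them was not tested.

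The promoter windows of 7 members could be read from RefSeq, build GRCm38.p6, from 250 bases before to 50 after the gene's start. Tagln, Myh11 and Actg2 are named only. A CArG box was searched on both strands. An exact box was in 535 of 32851 promoter windows (1.63%) and in 0 of the 7, and a box with 1 mismatch was in 6936 windows (21.1%) and in 3 of the 7, those of Acta2, Lmod1 and Synm. The 2 windows with a pair of such boxes are shown because they hold the most boxes among the members, with the boxes in capitals.
Acta2 promoter: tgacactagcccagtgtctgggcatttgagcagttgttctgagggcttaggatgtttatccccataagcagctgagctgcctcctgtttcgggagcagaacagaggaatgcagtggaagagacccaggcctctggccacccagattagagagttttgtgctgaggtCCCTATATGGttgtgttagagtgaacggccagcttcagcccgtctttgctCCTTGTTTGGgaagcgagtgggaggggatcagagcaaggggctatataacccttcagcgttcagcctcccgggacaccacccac
Lmod1 promoter: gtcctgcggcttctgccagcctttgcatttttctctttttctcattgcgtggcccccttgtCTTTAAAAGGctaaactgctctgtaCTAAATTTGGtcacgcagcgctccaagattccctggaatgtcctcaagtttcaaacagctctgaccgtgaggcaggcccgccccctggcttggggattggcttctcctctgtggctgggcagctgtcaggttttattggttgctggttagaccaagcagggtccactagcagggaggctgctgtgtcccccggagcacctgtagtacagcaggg
They cover chr19:34255324-34255623 on the minus strand and chr1:135324563-135324862 on the plus strand. The boxes start at positions -84 and -34 of Acta2 and at -189 and -164 of Lmod1, and the one of Synm at -239. These are matches of letters, and whether the sites are used was not tested here. A window without a match says nothing about the factor.

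Across the 8 groups the members were highest under gastric reflux in the wild type and lowest under mixed reflux in Nrf2-null mice. With marked spots kept, wild-type gastric reflux had the highest group mean for 9 of 10 members and Nrf2-null mixed reflux the lowest for 7 of 10. The spread within groups was wide, however, and of the 7 steps between neighbours in a member's order of group means, 0 to 3 were free of overlap between arrays (0 for Myh11, Smtn and Synm, 3 for Cnn1). For Acta2, Cnn1, Des, Lmod1 and Tagln these include a step beside Nrf2-null mixed reflux. The arrays of that group count as 1 sample, so their narrow range is no spread between mice. The share of such steps over all genes was not computed. The range of group means was 4.44 for Synm, the widest of the 10, and 0.94 for Myh11, the narrowest.

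**Figure D1:**
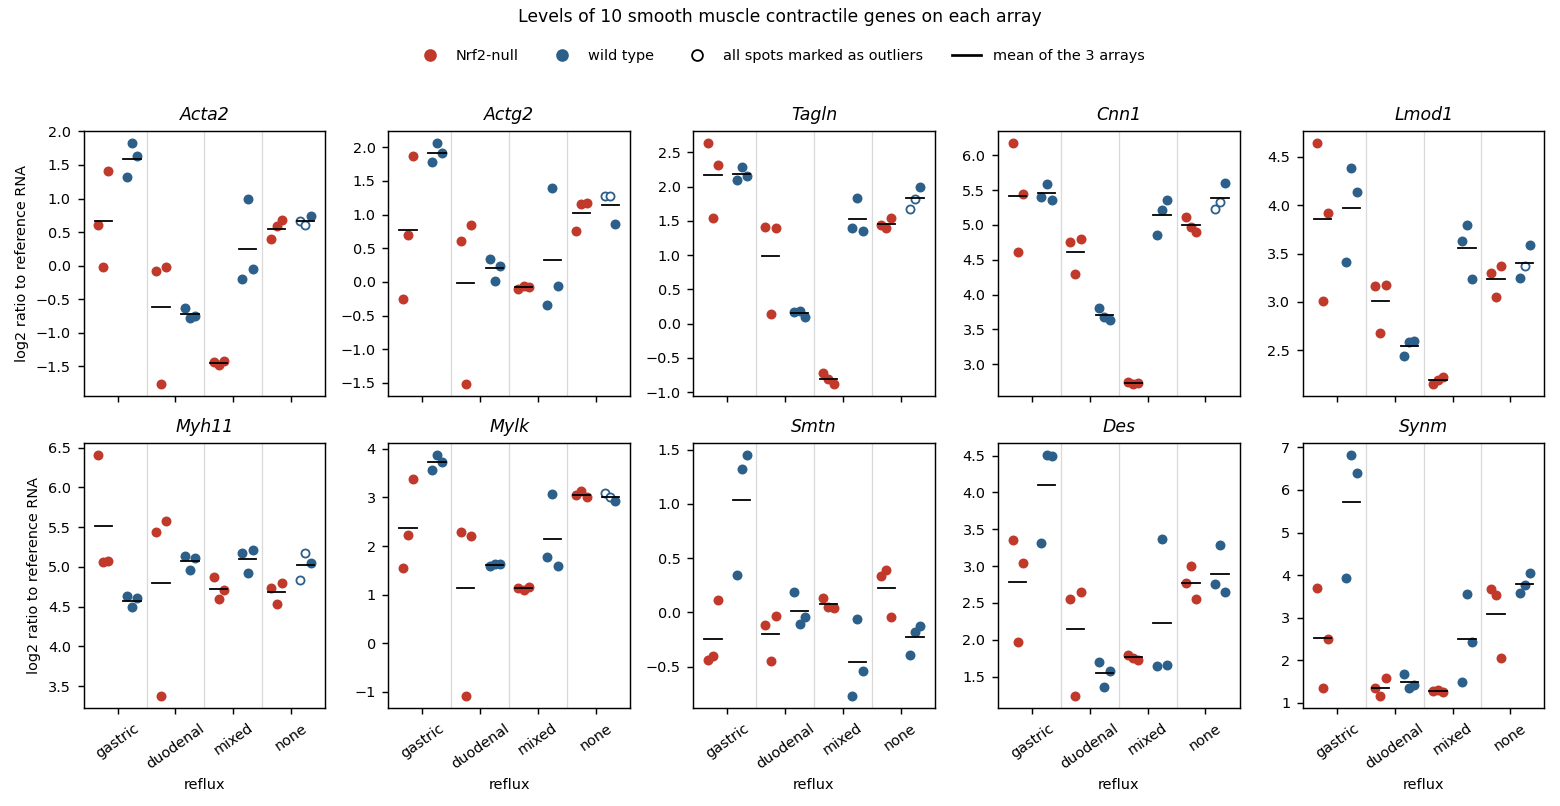
Level of each of the 10 members on each array, as the log2 ratio of oesophageal to reference RNA, by reflux type and genotype; red points are Nrf2-null and blue points wild type, open points are values whose spots were all marked as outliers, and bars are means of the 3 arrays. Cnn1 and Tagln lie lowest in Nrf2-null mixed reflux and next lowest in wild-type duodenal reflux, while Myh11 group means stay between 4.57 and 5.52.

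Among the filament proteins, Cnn1, which encodes calponin, an actin-binding protein of differentiated smooth muscle, had the clearest order. It lay at 2.75, 2.72 and 2.73 in Nrf2-null mixed reflux, at 4.75, 4.29 and 4.80 in Nrf2-null duodenal reflux and at 3.80, 3.68 and 3.64 in wild-type duodenal reflux. These 3 groups did not overlap one another, although the arrays of the first count as 1 sample. All 3 lay below every array of the groups with gastric reflux except Nrf2-null replicate 2. That replicate had 4.62, and the other arrays of Nrf2-null gastric reflux had 6.18 and 5.44, against 5.40, 5.59 and 5.36 in wild-type gastric reflux. Without reflux Cnn1 had 5.11, 4.97 and 4.90 in Nrf2-null mice, against 5.60 on the 1 wild-type array measured and 5.23 and 5.33 from marked spots. In wild-type mixed reflux it had 4.85, 5.21 and 5.36, within the span of the groups without reflux or with gastric reflux.

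Tagln, which encodes transgelin, an actin-associated protein that appears early in smooth muscle, followed Cnn1 closely (Pearson r 0.96 over 22 samples). It lay at -0.72, -0.81 and -0.88 in Nrf2-null mixed reflux, against 1.39, 1.84 and 1.36 in wild-type mixed reflux. Under duodenal reflux it had 1.42, 0.14 and 1.40 in Nrf2-null mice, against 0.17, 0.19 and 0.10 in wild-type mice. Here 2 of the 3 Nrf2-null arrays lay above all wild-type arrays and replicate 2 among them. Under gastric reflux the genotypes overlapped, with 2.64, 1.55 and 2.31 in Nrf2-null mice and 2.10, 2.28 and 2.16 in wild-type mice. Without reflux it had 1.44, 1.39 and 1.54 in Nrf2-null mice, against 2.00 on the measured wild-type array and 1.67 and 1.82 from marked spots.

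The second Tagln probe, printed above, lay upstream of the brightest one and gave the same low group, with -0.27, -0.13 and -0.21 in Nrf2-null mixed reflux and 0.75, 1.76 and 0.30 in wild-type mixed reflux. The brightest probe exceeded it by 2.17 on Nrf2-null duodenal reflux replicate 2 and by 1.92 on Nrf2-null gastric reflux replicate 1, against -0.68 to 1.06 on the other 22 arrays. Both arrays were also among the 3 with the lowest median Cy5 intensity (81.8 to 88.2, against 103 to 249 on the other arrays). The third such array was wild type without reflux replicate 2. The part of RNA quality in the results was not tested.

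Acta2, which encodes smooth muscle alpha-actin, stood closest to the average of the other members (r 0.97 over 22 samples). It had -1.43, -1.47 and -1.43 in Nrf2-null mixed reflux, against -0.19, 0.99 and -0.06 in wild-type mixed reflux. Under gastric reflux it had 0.60, -0.02 and 1.41 in Nrf2-null mice, against 1.32, 1.83 and 1.64 in wild-type mice. The mixed reflux groups did not overlap, with the Nrf2-null arrays counting as 1 sample, and the gastric reflux groups did. Its second probe, in coding sequence, went against this in Nrf2-null mixed reflux, at 0.09 on all 3 arrays, against -1.26, 1.00 and -0.95 in wild-type mixed reflux. Over 22 samples the second probe correlated with the brightest at 0.77, and the other 2 Acta2 probes tested did so at 0.96 and 0.93.

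Actg2, the gamma-actin of visceral smooth muscle, had -0.25, 0.70 and 1.87 in Nrf2-null gastric reflux, against 1.78, 2.06 and 1.92 in wild-type gastric reflux. Under mixed reflux it had -0.11, -0.07 and -0.07 in Nrf2-null mice, against -0.35, 1.40 and -0.06 in wild-type mice. The genotypes overlapped in both conditions, and the lowest of all arrays was Nrf2-null duodenal reflux replicate 2, at -1.52. Lmod1 encodes leiomodin, a nucleator of actin filaments, and had 2.15, 2.19 and 2.23 in Nrf2-null mixed reflux, against 3.63, 3.80 and 3.24 in wild-type mixed reflux. Under gastric reflux it had 4.64, 3.01 and 3.92 in Nrf2-null mice, against 3.41, 4.38 and 4.14 in wild-type mice. Its genotypes were thus apart under mixed reflux and overlapped under gastric reflux, as those of Acta2, Tagln and Cnn1 did. The Nrf2-null mixed reflux arrays count as 1 sample, and how often genes at large show this was not computed.

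The motor genes differed from each other. Myh11, which encodes the smooth muscle myosin heavy chain, lay at 6.41, 5.06 and 5.08 in Nrf2-null gastric reflux, against 4.63, 4.49 and 4.60 in wild-type gastric reflux, without overlap. It had 4.87, 4.60 and 4.71 in Nrf2-null mixed reflux and 5.17, 4.92 and 5.21 in wild-type mixed reflux, and 5.44, 3.37 and 5.57 in Nrf2-null duodenal reflux and 5.14, 4.96 and 5.12 in wild-type duodenal reflux. Its highest array was thus in Nrf2-null gastric reflux and its lowest in Nrf2-null duodenal reflux, both of low Cy5 signal. Mylk, which encodes the myosin light chain kinase, had 1.54, 2.22 and 3.38 in Nrf2-null gastric reflux, against 3.57, 3.87 and 3.73 in wild-type gastric reflux, without overlap. Its lowest value, -1.09, was on the same Nrf2-null duodenal reflux replicate 2, against 2.30 and 2.20 on the other arrays of that group and 1.58, 1.64 and 1.64 in wild-type duodenal reflux.

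Smtn encodes smoothelin, a cytoskeletal protein of contractile smooth muscle. It lay at -0.44, -0.40 and 0.12 in Nrf2-null gastric reflux, against 0.34, 1.32 and 1.45 in wild-type gastric reflux, and wild-type replicates 2 and 3 gave the highest of all 24 arrays. Synm encodes synemin, an intermediate filament protein that skeletal muscle also makes, and it had 3.71, 1.35 and 2.50 in Nrf2-null gastric reflux, against 3.94, 6.82 and 6.41 in wild-type gastric reflux. Neither gene overlapped between the genotypes under gastric reflux. Under duodenal reflux Synm was low in both, at 1.34, 1.16 and 1.58 in Nrf2-null mice and 1.68, 1.36 and 1.41 in wild-type mice. Its second probe showed a smaller span, with 3.94, 2.59 and 3.28 in Nrf2-null gastric reflux and 2.92, 4.61 and 4.66 in wild-type gastric reflux, and there the genotypes overlapped. Des encodes desmin, the main intermediate filament protein of muscle of every kind, and lay at 3.35, 1.97 and 3.04 in Nrf2-null gastric reflux, against 3.32, 4.51 and 4.51 in wild-type gastric reflux.

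Under gastric reflux Synm and Smtn were lower in Nrf2-null mice than in wild-type mice, and no other member passed. Synm differed by -3.20 ± 0.68 on the log2 scale (standard error of the fit, adjusted p = 0.00704), 9.20-fold lower, and Smtn by -1.28 ± 0.26 (adjusted p = 0.00543), 2.43-fold lower, each with n = 3 arrays a genotype in limma's moderated test adjusted over all genes. The second Synm probe differed by -0.79, and with all probes averaged Synm passed with a smaller difference than that of its brightest probe (adjusted p = 0.0199). The other intermediate filament gene, Des, differed by -1.32 ± 0.48 (adjusted p = 0.0636). Of the 10 members 2 fell, where 7.12% of all genes tested fell and 17.6% changed in either direction, and the members' median difference was -1.04, against 0.11 over all genes. Cnn1 and Tagln differed by -0.04 ± 0.28 and -0.02 ± 0.30, with 95% confidence intervals of -0.64 to 0.55 and -0.66 to 0.63. Mylk (-1.34), Actg2 (-1.15), Acta2 (-0.93), Lmod1 (-0.12) and Myh11 (0.94) did not pass either, with adjusted p of 0.138 to 0.822. The 2 groups were scanned on different days. A fit with the scan day as a block gave Synm -1.66 (adjusted p = 0.816) and Smtn -0.87 (adjusted p = 0.786). Without Nrf2-null replicate 2, whose sex-linked genes went against its label, and with marked spots kept, the differences were -2.62 (adjusted p = 0.0269) and -1.20 (adjusted p = 0.0172). Des passed without wild-type gastric reflux replicate 1 (-1.72, adjusted p = 0.0225) or without Nrf2-null gastric reflux replicate 1 (-1.60, adjusted p = 0.0356). Without the 3 arrays of low Cy5 signal the count was 4, with Des lower and Myh11 higher (0.50, adjusted p = 0.0129) in Nrf2-null mice. Myh11 also passed as higher in limma's test of the deposited value table (1.18, adjusted p = 0.0363). The scanner software's processed ratio gave the same call (1.18, adjusted p = 0.0441).

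Skeletal muscle, enteric neuron and glia, and adipocyte genes moved with some of these arrays. The mean of 15 skeletal muscle genes was 5.50, 2.21 and 2.23 in Nrf2-null gastric reflux, against 0.80, 5.04 and 4.97 in wild-type gastric reflux. The 2 wild-type arrays with high Synm, Des and Smtn were thus the ones with high skeletal muscle genes, while the Nrf2-null array with the highest skeletal mean of all had Synm at 3.71 and Smtn at -0.44. On the same 2 wild-type arrays 5 enteric neuron and glia genes averaged 2.16 and 2.22, and on that Nrf2-null array 2.10. The other arrays of these groups had -0.36 to -0.08. The mean of 2 adipocyte genes was 3.37, 2.98 and 3.93 on those arrays, against 0.38 to 1.58 on the others. None of the 15 skeletal muscle genes passed the test between the genotypes under gastric reflux, and no enteric neuron and glia or adipocyte gene did. The part of these cell types in the result was not tested. Fibroblast and matrix genes fell in 2 of 8 and endothelial genes in 4 of 7 in the same comparison, and 2 of 7 stratified epithelium genes rose.

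Under mixed reflux Cnn1 and Tagln were lower in Nrf2-null mice than in wild-type mice. Cnn1 differed by -2.41 ± 0.40 (adjusted p = 0.00348), 5.32-fold lower, and Tagln by -2.33 ± 0.43 (adjusted p = 0.00694), 5.04-fold lower, from limma with the Nrf2-null arrays as 1 sample against n = 3. The share of all genes tested that fell was 1.16%, and 3.46% changed in either direction, beside 2 of 10 members. Acta2 (-1.69 ± 0.61, adjusted p = 0.161) and Lmod1 (-1.37 ± 0.46, adjusted p = 0.122) did not pass. Their arrays did not overlap between the genotypes, but the Nrf2-null arrays count as 1 sample. How often genes at large lack such overlap was not computed. Myh11 differed by -0.38 ± 0.64, with an interval of -1.73 to 0.98, and the other 5 members lay between -1.22 (Synm) and 0.54 (Smtn), with adjusted p of 0.492 to 0.864. The mean of skeletal muscle genes was 3.67 to 3.75 on the Nrf2-null arrays, against 2.14 to 4.44 on the wild-type arrays, and that of stratified epithelium genes 5.07 to 5.12, against 4.85 to 5.04. No gene of either list passed the test in this comparison, and the difference in tissue label between these groups and genotype cannot be told apart. Both groups were scanned on the same day. In a fit of that day alone Cnn1 differed by -2.41 (adjusted p = 0.0348) and Tagln by -2.33 (adjusted p = 0.0585), and with slide as a block by -1.68 (adjusted p = 0.0798) and -2.31 (adjusted p = 0.092). With all probes of Tagln averaged its difference was -1.74 (adjusted p = 0.166).

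Under duodenal reflux no member passed between the genotypes, where 1.91% of all genes tested did, and at an unadjusted p under 0.05 there were 2, both higher in Nrf2-null mice. Those were Cnn1, at 0.91 ± 0.28 (adjusted p = 0.107), and Tagln, at 0.83 ± 0.30 (adjusted p = 0.169). The second Tagln probe differed by -0.009, with 1.39, -2.03 and 1.33 in Nrf2-null mice. The Tagln values that follow are those of its brightest probe. Tagln passed without Nrf2-null replicate 2 (1.26, adjusted p = 0.0236), and both genes passed without the 3 arrays of low Cy5 signal (adjusted p = 0.0134 for Cnn1 and 0.00438 for Tagln). The other 8 members lay between -0.48 (Mylk) and 0.60 (Des), with adjusted p of 0.453 to 0.941. Without reflux no member passed, with 0 of 10 at an unadjusted p under 0.05 and 0.17% of all genes called, and the differences ran from -0.72 for Synm to 0.46 for Smtn, with adjusted p of 0.713 to 0.986. Averaged over the 4 conditions all 10 differences were below 0, with a median of -0.46, against 0.04 over all genes. Synm fell by this measure (-1.31 ± 0.38, adjusted p = 0.0426), 1 of 10 members where 2.34% of all genes fell and 8.16% changed. The second Synm probe differed by -0.26, and with all probes averaged the difference was -0.79 (adjusted p = 0.11). Leaving out 1 array lost that call in 17 of 24 cases, with adjusted p up to 0.0744, and the scan day block gave -0.86 (adjusted p = 0.654).

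The genotype difference varied with the reflux group for Cnn1 (moderated F test from limma's variances, adjusted p = 0.0104), Tagln (0.0185) and Smtn (0.0287), 3 of 10 members, where 4.92% of all genes tested passed. Relative to the genotype difference without reflux, that of Cnn1 was 0.56 ± 0.49 with gastric reflux, 1.52 ± 0.49 with duodenal reflux and -1.80 ± 0.56 with mixed reflux. For Tagln these values were 0.52 ± 0.52, 1.37 ± 0.52 and -1.80 ± 0.61, so both genes had opposite signs under duodenal and mixed reflux, and no single term passed on its own. The second Tagln probe gave genotype differences of -0.04 without reflux, -0.009 under duodenal reflux and -1.14 under mixed reflux. A positive duodenal term of that size was thus seen with the brightest Tagln probe and not with the second. Smtn had -1.74 ± 0.36 under gastric reflux (adjusted p = 0.0309), -0.67 ± 0.36 under duodenal and 0.08 ± 0.44 under mixed reflux. Synm did not pass (adjusted p = 0.149). The mixed reflux term of Cnn1 and Tagln rests on the Nrf2-null group that counts as 1 sample and alone has the epithelium label, so reflux and tissue label cannot be told apart in it. With scan day as a block Cnn1 passed (adjusted p = 0.0362), and Tagln (0.0644) and Smtn (0.411) did not. Without wild type without reflux replicate 3, Cnn1 and Tagln could not be fitted, and without Nrf2-null gastric reflux replicate 1 the count was 5. For Smtn 8 of the 24 arrays, left out one at a time, took the adjusted p past the threshold, to 0.0789 at most.

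**Figure D2:**
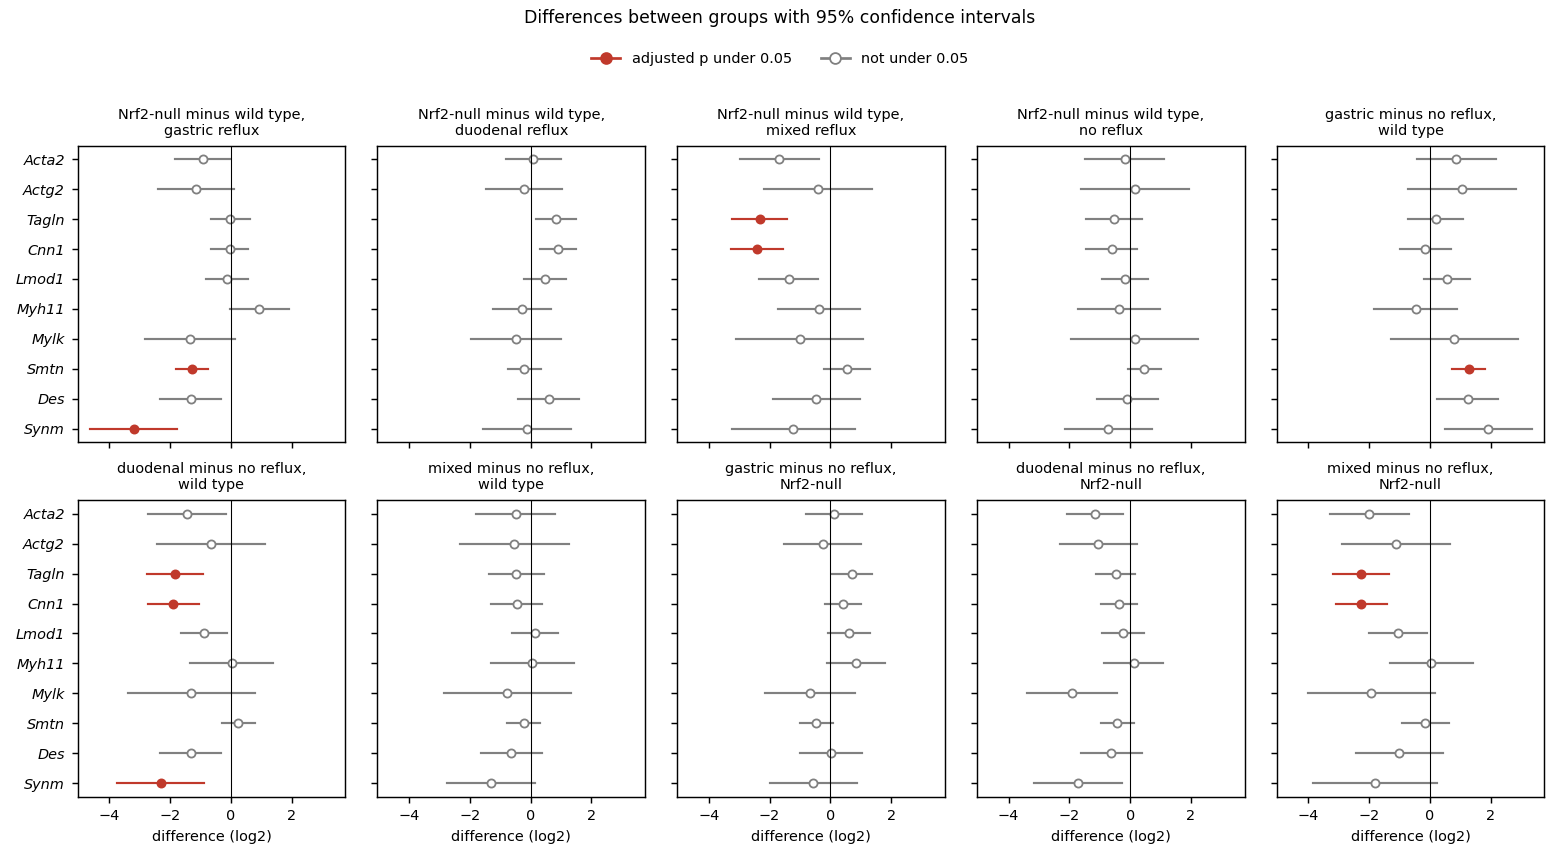
Differences between groups for the 10 members on the log2 scale, with 95% confidence intervals, for 4 comparisons of the genotypes and 6 of reflux with no reflux; filled red points have an adjusted p under 0.05. Cnn1 and Tagln pass in the mixed reflux comparison of the genotypes, in wild-type duodenal reflux and in Nrf2-null mixed reflux, while intervals of Myh11 include 0 in all 10 panels.

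In wild-type mice some filament genes were lower with duodenal reflux than without reflux. Cnn1 differed from no reflux by -1.90 ± 0.40 (adjusted p = 0.00759), Tagln by -1.84 ± 0.43 (adjusted p = 0.0136) and Synm by -2.31 ± 0.68 (adjusted p = 0.0387) in limma's test, 3.72-fold, 3.59-fold and 4.97-fold lower. These were 3 of 10 members, where 2.98% of all genes tested fell and 10.3% changed. For Cnn1 and Tagln the comparison rests on 1 array without reflux. With marked spots kept, and 3 arrays a group, they differed by -1.68 (adjusted p = 0.000756) and -1.67 (adjusted p = 0.00131), and Acta2 passed too (-1.38, adjusted p = 0.0331), where 12.7% of all genes did. Smtn (0.24 ± 0.26) and Myh11 (0.03 ± 0.64) had differences above 0 and did not pass. The second Synm probe differed by -0.31, and with all probes averaged Synm (-1.31, adjusted p = 0.127) and Tagln (-1.57, adjusted p = 0.136) did not pass. Neither did with each array centred on its median (Synm -1.94, adjusted p = 0.115, and Tagln -1.87, adjusted p = 0.0715). The other 5 members lay between -1.44 (Acta2) and -0.66 (Actg2), with adjusted p of 0.0897 to 0.677. Synm lost its call when any 1 of the 6 arrays was left out, at -2.42 to -2.19 with adjusted p of 0.0787 to 0.116. The 2 groups were again scanned on different days, and in the fit blocked by day the differences of Cnn1, Tagln and Synm were -1.75 (adjusted p = 0.823), -1.96 (adjusted p = 0.775) and -1.01 (adjusted p = 1.00). Skeletal muscle genes averaged 3.12 to 3.21 with duodenal reflux and 1.32 to 2.25 without reflux, higher where the 3 members were lower. None of the 15 passed, and 4 of 7 endothelial genes rose. The fibroblast and matrix mean was lower, as the members were, at -0.86 to -0.67 with duodenal reflux and -0.46 to 0.27 without reflux. Means of cardiac muscle and adipocyte genes were lower too. No fibroblast and matrix, cardiac muscle or adipocyte gene passed. The part of these cell types in the result was not tested.

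Gastric reflux in wild-type mice was accompanied by a rise in 1 member. Smtn differed from no reflux by 1.27 ± 0.26 (adjusted p = 0.0204), 2.41-fold higher, where 3.07% of all genes tested rose and 4.13% changed. Synm (1.92 ± 0.68, adjusted p = 0.112) and Des (1.24 ± 0.48, adjusted p = 0.141) did not pass, and both did without wild-type gastric reflux replicate 1, the array of low skeletal muscle genes (2.82, adjusted p = 0.00486, and 1.64, adjusted p = 0.0424). The Smtn call was lost without wild type without reflux replicate 1 or 2, or without gastric reflux replicate 2 or 3, with differences of 1.06 to 1.29 in those cases, and in the arrays of scan day 2 alone, which hold 1 array without reflux, it was 1.16 (adjusted p = 0.251). The skeletal mean was 0.80, 5.04 and 4.97 with gastric reflux, against 1.34, 2.25 and 1.32 without reflux, highest on the 2 arrays that were highest for Smtn. Of the arrays compared, those 2 also had the highest mean of enteric neuron and glia genes (2.16 and 2.22) and of adipocyte genes (3.37 and 2.98). The endothelial mean was 3.39 to 3.68 with gastric reflux and 1.89 to 2.70 without reflux, and 2 of 7 endothelial, 1 of 8 fibroblast and matrix, 1 of 6 pericyte and 0 of 15 skeletal muscle genes rose. The part of these cell types in the result was not tested. The other 7 members lay between -0.47 (Myh11) and 1.05 (Actg2), with adjusted p of 0.399 to 0.871. Under mixed reflux no member passed in wild-type mice, with 0 of 10 at an unadjusted p under 0.05 and 0.0536% of all genes called, and differences ran from -1.30 for Synm to 0.14 for Lmod1, with adjusted p of 0.491 to 0.987. In that group replicate 2 stood above replicates 1 and 3 for Acta2, Des, Mylk, Actg2 and Synm, and its skeletal mean was 4.44, against 2.24 and 2.14. Its enteric neuron and glia mean was 1.75, against -0.11 and -0.20, and its adipocyte mean 5.36, against -0.04 and 0.20.

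In Nrf2-null mice mixed reflux went with lower Cnn1 and Tagln, at -2.26 ± 0.40 (adjusted p = 0.00371) and -2.26 ± 0.43 (adjusted p = 0.00619), each 4.80-fold lower than without reflux. These were 2 of 10 members, where 1.3% of all genes tested fell and 4.71% changed, and 9 of 10 differences were below 0. Acta2 had -1.99 ± 0.61 (adjusted p = 0.0777). The other 7 members lay between -1.93 (Mylk) and 0.04 (Myh11), with adjusted p of 0.22 to 0.98. Means of other cell types lay apart too. The skeletal mean was 3.67 to 3.75 with mixed reflux and 2.29 to 3.33 without reflux, the endothelial mean 3.40 to 3.42 with mixed reflux and 2.48 to 2.57 without, the stratified epithelium mean 5.07 to 5.12 with mixed reflux and 4.58 to 4.76 without, and the fibroblast and matrix mean -0.35 to -0.32 with mixed reflux and 0.11 to 0.66 without. The pericyte mean was 2.43 to 2.53 with mixed reflux and 2.77 to 2.95 without. The mean of 4 cardiac muscle genes was 1.40 to 1.43 with mixed reflux and 1.60 to 1.78 without. No gene of these lists passed the test here, and their part in the result was not tested. The mixed reflux group alone carries the epithelium label, so reflux and the tissue label cannot be told apart. In the arrays of scan day 3 alone, which hold 1 array of Nrf2-null mice without reflux, Cnn1 had -2.17 (adjusted p = 0.169) and Tagln -2.34 (adjusted p = 0.171), and with slide as a block -1.29 (adjusted p = 0.138) and -2.26 (adjusted p = 0.0917). Duodenal reflux gave no call in Nrf2-null mice, where 19.8% of all genes tested changed, and 3 members had an unadjusted p under 0.05, all lower: Mylk (-1.92 ± 0.69, adjusted p = 0.0625), Acta2 (-1.17 ± 0.43, adjusted p = 0.0678) and Synm (-1.72 ± 0.68, adjusted p = 0.0844). With marked spots kept Mylk and Acta2 passed (adjusted p = 0.0452 and 0.0497), where 20.3% of all genes did. Without 1 array, the number of calls was 0 to 2: Mylk passed without duodenal replicate 1 or 3, Acta2 without duodenal replicate 3 and Synm without replicate 3 of the mice without reflux. Without the 3 arrays of low Cy5 signal, which include duodenal replicate 2, Myh11 alone passed, higher by 0.82 (adjusted p = 0.000674). The other 7 members lay between -1.05 (Actg2) and 0.11 (Myh11), with adjusted p of 0.229 to 0.89. In this comparison 3 of 7 stratified epithelium, 2 of 7 endothelial, 1 of 15 skeletal muscle and 1 of 4 cardiac muscle genes rose. Of 2 genes of interstitial cells of Cajal 1 fell. The stratified epithelium mean was 5.31 to 6.04 with duodenal reflux and 4.58 to 4.76 without. The part of these cell types in the result was not tested. Gastric reflux gave no call in Nrf2-null mice, where 0.579% of all genes did, and 1 member, Tagln, had an unadjusted p under 0.05 (0.71 ± 0.30, adjusted p = 0.263), the other 9 lying between -0.68 (Mylk) and 0.83 (Myh11) with adjusted p of 0.348 to 0.99. All comparisons with no reflux within a genotype share the same 3 arrays, and the genotype comparisons share arrays with them.

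Over the 22 samples most members varied together, and Myh11 and Smtn were the exceptions. Of the 45 pairs of members 12 had a Pearson r over 0.80, and the median was 0.67, as a description over samples that share slides and groups. Tagln with Cnn1 (0.96) and Actg2 with Mylk (0.96) were the closest pairs. Myh11 stood apart, with r from -0.29 with Smtn to 0.31 with Tagln and 0.10 with the mean of the other members. Smtn correlated with Synm at 0.72 and with Des at 0.70, but with Cnn1 at 0.12, with Tagln at 0.22 and with Lmod1 at 0.29. The mean of fibroblast and matrix genes correlated with Actg2 at 0.80 and with Mylk at 0.77, but with Cnn1 at 0.39. For skeletal muscle genes r was between -0.17 (Mylk) and 0.38 (Smtn), with 0.31 for Des and 0.22 for Synm. Stratified epithelium genes correlated with Mylk at -0.85, with Actg2 at -0.80 and with Cnn1 at -0.26.

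**Figure D3:**
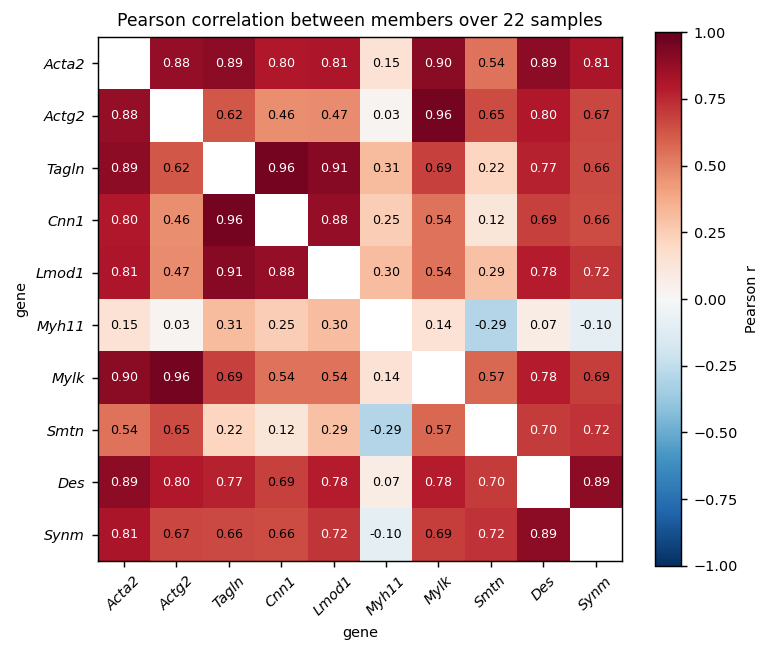
Pearson correlation between the log2 ratios of each pair of members over 22 samples, coloured from -1 to 1. The values of Myh11 with the other 9 members lie between -0.29 and 0.31, and Tagln with Cnn1 reaches 0.96.

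The genes most like the mean of the members were sought among all 20542 genes by Pearson r over the same 22 samples. The 10 closest that are no members were Csrp1 (0.97), Actc1 (0.96), Tns1 (0.95), Jph2 (0.95), Eml1 (0.94), Rras (0.94), Cys1 (0.94), Cavin2 (0.94), Tpm1 (0.94) and Nacad (0.93). Csrp1 encodes a LIM protein of actin filaments, Actc1 the cardiac alpha-actin and Tpm1 a tropomyosin. The mean of the members itself was 1.14 to 1.18 in Nrf2-null mixed reflux, against 1.87 to 2.81 in wild-type mixed reflux, and 2.01 to 2.91 in Nrf2-null gastric reflux, against 2.98 to 3.72 in wild-type gastric reflux. Under duodenal reflux it was 0.81 to 2.22 in Nrf2-null mice and 1.49 to 1.64 in wild-type mice, and there the genotypes overlapped. Without reflux it was 2.40 to 2.57 in Nrf2-null mice and 2.60 to 2.75 in wild-type mice. These ranges nearly touch, 2 of the wild-type arrays there rest partly on marked spots, and no member passed in that comparison. The Nrf2-null mixed reflux arrays count as 1 sample. How often genes at large lack such overlap was not computed, so no genotype effect is read from these ranges.

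**Figure D4:**
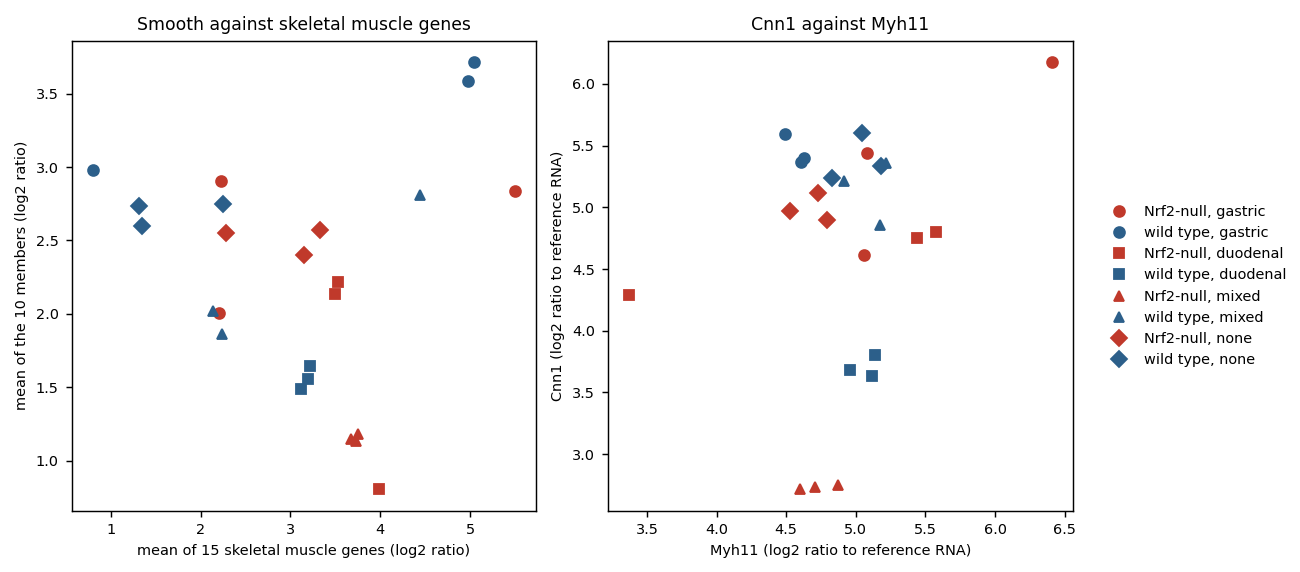
Left, the mean log2 ratio of the 10 members against that of 15 skeletal muscle genes; right, Cnn1 against Myh11; 1 point per array, with colour for genotype and shape for reflux. The 3 Nrf2-null mixed reflux arrays lie at member means of 1.14 to 1.18, and at Cnn1 of 2.72 to 2.75 beside Myh11 of 4.60 to 4.87.

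The 5 lists of other genes of smooth muscle contraction held 66 genes, of which 61 were tested. Between the genotypes under gastric reflux 20 of the 61 fell in Nrf2-null mice and 1 rose, where 7.12% of all genes fell, with a median difference of -0.57. The 2 groups were scanned on different days, and the calls of Synm and Smtn in this comparison did not hold with scan day as a block. Values of the list genes under that block are not given here. Among receptors, channels and calcium handling genes 6 of 14 fell, including Pln, which encodes phospholamban, a brake on the calcium pump (-2.42 ± 0.41, adjusted p = 0.00236), and Ednrb, an endothelin receptor (-1.77 ± 0.35, adjusted p = 0.0051). Of the dense body and adhesion genes 7 of 17 fell, with Fermt2, a kindlin of integrin adhesions, at -2.14 ± 0.53. Of the thin filament genes 3 of 8 fell, with Cald1, the actin-binding caldesmon, at -2.33 ± 0.48 (adjusted p = 0.00611) and the muscle leiomodin Lmod2 at -2.58 ± 0.87. Of 11 genes of light chain phosphorylation 2 fell, Prkg1 (-1.57 ± 0.29), the kinase that acts for nitric oxide, and Rock2 (-0.66 ± 0.17), and Ppp1cb, a subunit of the myosin phosphatase, rose (0.58 ± 0.18). Of 11 regulators 2 fell, namely Myocd, the coactivator myocardin (-1.96 ± 0.50, adjusted p = 0.0155), and Gata6 (adjusted p = 0.0158). Pln, Lmod2 and Atp2a2 (-1.49 ± 0.41) are also genes of heart and skeletal muscle.

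The other comparisons moved fewer of the 61. In wild-type gastric reflux 12 rose and none fell, where 3.07% of all genes rose, and 8 of the 12 were receptors, channels and calcium handling genes, with Pln at 2.58 ± 0.41 (adjusted p = 0.00973), and Lmod2 at 3.29 ± 0.87. In wild-type duodenal reflux 2 rose and 6 fell, where 10.3% of all genes changed and 2.98% fell. Ednra, an endothelin receptor, rose (1.47 ± 0.35), as did Actn1 (0.58 ± 0.13), an actinin of dense bodies, while Cald1 (-1.82 ± 0.48), Myl9 (-1.45 ± 0.43), the regulatory light chain, Csrp1 (-1.40 ± 0.39), Tgfb1i1 (-1.19 ± 0.25), Ppp1r12a (-0.92 ± 0.28) and Gata6 (-0.83 ± 0.26) fell. In Nrf2-null duodenal reflux 10 fell and none rose, where 19.8% of all genes changed and 6.27% fell, with Myocd (-1.68 ± 0.50) and Parva (-1.41 ± 0.29), a partner of integrin-linked kinase, the largest. In Nrf2-null mixed reflux 3 fell, where 4.71% of all genes changed and 1.3% fell, namely Myl9 (-2.15 ± 0.54), Tgfb1i1 (-1.54 ± 0.36), a coactivator at focal adhesions, and Tbxa2r (-1.01 ± 0.23), the thromboxane receptor. Between the genotypes under mixed reflux 1 fell, where 1.16% of all genes did: Tgfb1i1 (-1.42 ± 0.36, adjusted p = 0.038). None of the 61 passed between the genotypes without reflux or under duodenal reflux, nor in wild-type mixed or Nrf2-null gastric reflux. The calls with Nrf2-null mixed reflux rest on the group that counts as 1 sample and alone has the epithelium label. Tissue label cannot be told apart from reflux or genotype in them. In wild-type gastric and duodenal reflux no member call held with scan day as a block, and the list genes under that block are not given here.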

How the data were processed

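The authors deposited scanner files that hold the mean and local background intensity of both dyes per spot and the software's log10 ratio, per the file headers (Feature Extraction 10.5.1.1 with build mm7 for 2 arrays, 10.7.3.1 with mm9 for the others, and version 9.1 of that software in the submitters' processing notes). Their deposited value table was read as log2 ratios from its slope of 2.58 to 3.14 on the log10 ratio, and how it was normalised is unknown.

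With limma 3.58.1 in R 4.3.3, intensities were corrected by normexp (offset 50), local backgrounds marked as outliers being replaced by the array's median, and normalised by loess with control spots at weight 0. Spots marked as outliers and control spots were left out, repeat spots were averaged and a gene was represented by its brightest probe. Genes entered the test when some group had that probe well above background in the Cy5 channel of all its arrays. One mean per group was fitted to 22 samples (lmFit, eBayes, 14 residual and 2.92 prior degrees of freedom), with Benjamini-Hochberg adjustment over all genes and a threshold of 0.05. The F test used the same variances, with each gene's own missing values. Errors after ± are standard errors from limma. Marker means, orders and correlations keep the marked spots. The fits were tested on simulated data.

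The rule for named genes takes all 10 members in every comparison (those that did not pass partly by their range), up to 4 called genes of each list, and the 10 genes most like the members. The members, lists and tests were chosen with earlier results of these data known. Replicate numbers did not pair samples (correlations of same-numbered deviations -0.46 to 0.37, with all pairs over 0.1 in 0 of 8 comparisons). Alternatives were another normalization, background, starting signal, probe rule, filter, block or set of arrays, and leaving out each array.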

Additional observations from a re-analysis of the deposited data

Results flagged for a closer look

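The test that the genotype difference varies between reflux groups singled out 3 members, by a moderated F test across all genes with limma's variances. The adjusted p was 0.0104 for Cnn1, 0.0185 for Tagln and 0.0287 for Smtn. For Cnn1 and Tagln the genotype difference was above 0 under duodenal reflux (0.91 and 0.83) and below 0 under mixed reflux (-2.41 and -2.33). For the second Tagln probe it was -0.009 under duodenal reflux and -1.14 under mixed reflux. For Smtn it was -1.28 under gastric reflux and 0.46 without reflux. The Nrf2-null mixed reflux group alone carries the epithelium label, so reflux and tissue label cannot be told apart in the mixed reflux values.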

How the results depend on the processing

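The number of members called moved as follows, against 2 for the genotypes under gastric reflux, 0 under duodenal, 2 under mixed, 0 without reflux and 1 on average, 1, 3 and 0 for gastric, duodenal and mixed reflux in wild-type mice, and 0, 0 and 2 in Nrf2-null mice. Among members no call changed direction under any alternative. With each array centred on its median the counts were 1 under mixed reflux and 0 on average, 3 and 1 in wild-type gastric and duodenal reflux, 1 and 1 in Nrf2-null duodenal and mixed reflux, and 1 in the F test. It also put the median difference of all genes at 0.30 in wild-type gastric reflux, against -0.03 by loess. Local backgrounds as read gave 0 on average and 4 in wild-type gastric reflux, the deposited table and no filter 0 on average, and marked spots kept 2 in Nrf2-null duodenal reflux. The mean of all probes gave 1 under mixed reflux, 0 on average, 2 in wild-type duodenal reflux and 1 in Nrf2-null mixed reflux. With scan day as a block the counts were 0 under gastric reflux, on average, in wild-type gastric and duodenal reflux and in Nrf2-null mixed reflux, and 1 in the F test. With slide as a block they were 1 and 0 under duodenal and mixed reflux, 0 in wild-type gastric reflux, and 1, 1 and 0 in Nrf2-null gastric, duodenal and mixed reflux. With the Nrf2-null mixed arrays as 3 samples they were 4 under mixed reflux, 4 on average, and 2 and 6 in Nrf2-null duodenal and mixed reflux. Fits of only the 2 groups compared gave 0, 1 and 0 under gastric, duodenal and mixed reflux, 0 and 8 in wild-type gastric and duodenal reflux, and 1 and 5 in Nrf2-null duodenal and mixed reflux. Without the 3 arrays of low Cy5 signal they were 4, 2, 4 and 3 under gastric, duodenal and mixed reflux and on average, 5 in wild-type duodenal reflux, 1 and 4 in Nrf2-null duodenal and mixed reflux, and 5 in the F test. Scan day 2 alone gave 0 in wild-type gastric reflux, and scan day 3 alone 1 under mixed reflux and 0 in Nrf2-null mixed reflux. Leaving out 1 array gave 2 to 3, 0 to 1, 2 to 2 and 0 to 3 under gastric, duodenal and mixed reflux and on average, 0 to 3 and 0 to 2 in wild-type gastric and duodenal reflux, 0 to 2 in Nrf2-null duodenal reflux and 1 to 5 in the F test, and 0 to 0 without reflux, in wild-type mixed and in Nrf2-null gastric reflux. The 0 in wild-type duodenal reflux came without wild type without reflux replicate 3, where Cnn1 and Tagln could not be fitted. Both kept their calls there in the other 5 fits. The replicate block, a pairing that the labels do not state, gave 0 on average and changed no other count of members by over 1.5 times. Marked spots kept, without Nrf2-null gastric reflux replicate 2, was chosen after seeing the data. The count of all genes called moved by over 1.5 times in 102 of 228 cases. Allowing 1 mismatch raised the share of promoters with a CArG box to 21.1%, against 1.63%. The causes were not tested. Values near background limit no member, since all 10 were well above it on every array.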
